A study of Homo sapiens with 18 samples.

Results

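Gene expression in A2780, a platinum-sensitive line labelled as endometrial/ovarian, was compared with that in PEA1 and PEO1, platinum-sensitive lines derived from patients with high-grade serous ovarian carcinoma. Members were chosen by line label alone: the 3 A2780 libraries stood against 3 PEA1 and 3 PEO1 libraries, 9 of the 18 RNA-seq libraries of the series. The other 9 libraries came from the resistant lines CP70, PEA2 and PEO4. CP70 was derived from A2780 in vitro, whereas PEA2 and PEO4 were isolated from the PEA1 and PEO1 patients after resistance had developed. A gene was placed on 1 side of A2780 only where it differed from PEA1 and from PEO1 in the same direction, so that each serous line counted equally. According to the study, PEA1 came from ascites taken before platinum, PEO1 was isolated after platinum chemotherapy but before clinical resistance, and A2780 is not of the high-grade serous type. No drug or genetic change was applied to these 9 libraries, and all lines were grown in the same medium with 10% fetal bovine serum.

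High-grade serous carcinoma is thought to arise largely from the secretory epithelium of the fallopian tube, a derivative of the Müllerian duct. Its cells usually keep the transcription factors PAX8 and WT1, the cell-surface mucin MUC16 (the CA125 antigen) and an epithelial set of keratins, cadherins and tight-junction proteins. LIN28B, by contrast, is an RNA-binding protein of fetal tissue that blocks maturation of let-7 microRNAs, and let-7 in turn represses HMGA2 and IGF2BP1.

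Values are log2 normalised read counts (log2 CPM, the count scaled to a common library size), made with 0.5 reads added to every count. The sensitive libraries held 1344098 to 7067336 reads on the 12853 genes listed. PEA1 was the shallowest line, with at most 1670866 reads, and PEO1 reached the greatest depth. Because of this, 0 reads corresponds to -2.95 to -2.16 in A2780, to -1.80 to -1.46 in PEA1 and to -3.73 to -2.48 in PEO1, and a gene with no read in either line still differs by -1.07 between A2780 and PEA1. Fold differences against a line with 0 reads are therefore given as lower bounds, computed with 3 reads over that line's libraries, and ratios on 1 to 3 reads carry exact 95% intervals that cover counting error only. Log2 differences of such genes depend on the added 0.5 reads and are no bounds, so list medians are also given with these genes set to their bound. Nothing in the labels says that the 3 libraries of a line came from separate cultures, so p-values measure only the spread between these libraries, which may be technical. With A2780 as the only line of its kind, a difference of histotype and a difference of this individual line cannot be told apart. In bulk RNA, fewer cells expressing a gene and less RNA per cell cannot be told apart either.

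The labels were checked against lineage genes. PAX8 and CDH6 were high in PEA1 and PEO1, but CDH6 was named for the size of its A2780 difference. Other lineage genes were low in PEA1: WT1 had 7 to 11 reads, SOX17 1 to 9, MUC16 0 to 5, MUC1 2 to 4 and ESR1 0. In PEO1, SOX17 had 0 to 1 reads and MUC1 0 to 6, whereas WT1, MUC16 and ESR1 were high. PEA1 also lacked several genes that define epithelium: GRHL2 and ESRP1 had 0 reads in all 3 PEA1 libraries, CDH1 had 0 to 4 reads, KRT7 had 1 to 3 reads and KRT19 had 1 to 3 reads. In PEA2, the resistant line of the same patient, CDH1 averaged 9.53 ± 0.22 and KRT7 10.05 ± 0.08 on the log2 scale (SD, n = 3). PEA1 thus went against an epithelial description in these genes while it kept PAX8. Values against PEA1 and against PEO1 are therefore given separately for most named genes. Some list medians, and the differences set beside those of CP70, use the mean of both serous lines.

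More genes were lower than higher in A2780. Of 12853 genes, 414 were higher in A2780 than in both serous lines (3.22%) and 1398 were lower (10.9%), at an absolute log2 difference above 2 and a limma adjusted p below 0.05 against each line. Against PEA1 alone 834 genes were higher (6.49%) and 2005 lower (15.6%). Against PEO1 alone 777 were higher (6.05%) and 2190 lower (17.0%). The contrast of A2780 with the mean of the serous lines, each weighted equally, called 659 genes higher (5.13%) and 2096 lower (16.3%). That contrast also calls genes which only 1 serous line separates from A2780. VIM, the mesenchymal filament protein, is an example: it averaged 11.04 ± 0.14 in A2780, 11.30 ± 0.11 in PEA1 and 3.67 ± 0.38 in PEO1, and its equal-weight difference of 3.56 came from PEO1. The serous lines differed from each other in 2146 genes (16.7%), and 57 genes stood between them, higher in A2780 than in 1 serous line and lower than in the other. The median equal-weight difference over all genes was -0.08. The split of 22.8% higher and 77.2% lower among same-side genes became 40.4% higher after quantile normalization (612 higher and 904 lower), which moved that median to 0.21, so the size of the excess of lower genes depended on the scaling.

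**Figure D1:**
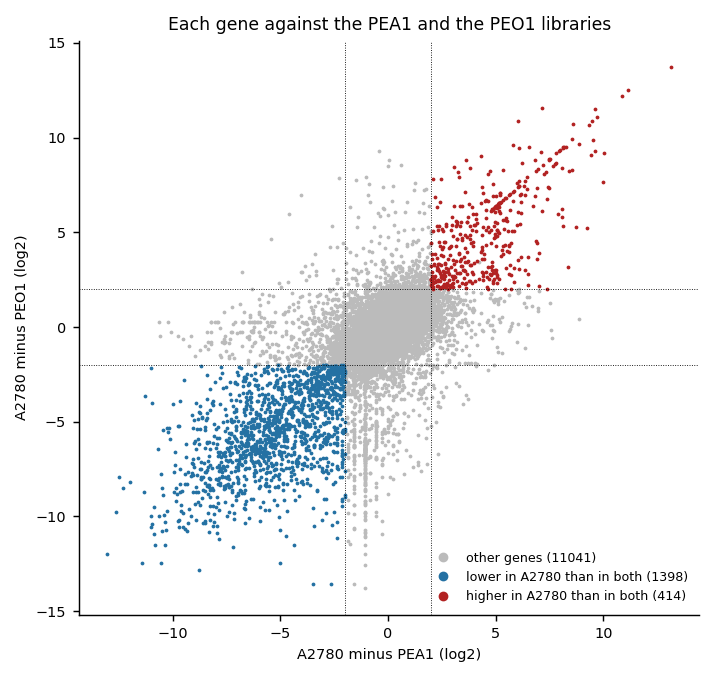
Log2 difference of A2780 from PEA1 (horizontal axis) and from PEO1 (vertical axis) for each of 12853 genes, with dotted lines at an absolute difference of 2. The 1398 genes lower than in both lines lie at the lower left and the 414 higher genes at the upper right; both axes contain the same A2780 libraries, so the slant of the cloud is not a result, and the vertical stripe near -1.07 holds genes without reads in A2780 and PEA1.

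Most of the lower genes were at or near 0 reads in A2780. In 887 of the 1398 lower genes no A2780 library held more than 3 reads, and in 461 of them every A2780 library held 0. Among the 414 higher genes, 127 had at most 3 reads in every serous library and 47 had 0 in all 6. The median of the smaller of both differences was 4.21 on the log2 scale for lower genes (3.93 with 0-read genes at their bound) and 3.45 for higher genes (3.44). A2780 and serous libraries did not overlap in 1381 lower and 412 higher genes. Over all genes, irrespective of any test, the A2780 libraries lay below all 6 serous libraries in 26.8% and above them in 21.0%. Because 0 reads has a lower value in A2780 than in PEA1, the 26.8% includes genes without reads in either line, such as GRHL2 and ESRP1. It is therefore too high as a share of measured differences. The serous lines also differed from each other in 442 of the lower and 97 of the higher genes.

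Several serous and Müllerian lineage genes were lower in A2780. Of 16 listed genes, 15 were measured, and 8 of these were lower in A2780 than in both lines (against 10.9% of all genes). Of the rest, 0 were higher (3.22%) and 7 were not on the same side. In 12 of the 15 no A2780 library held more than 3 reads, so these 12 could be measured only through other lines. The count therefore describes these genes and is no evidence for the list. The list's median equal-weight difference was -5.55 (-4.98 at the bounds) beside -0.08 over all genes (-0.07). Its median was -3.77 against PEA1 (-2.84 at the bounds) and -7.20 against PEO1 (-6.20). PAX8, the transcription factor of the Müllerian epithelium (chr2:113973574-114036498 in GRCh37, minus strand), had 0 reads in all 3 A2780 libraries. Its log2 values were 8.56, 8.08 and 8.42 in PEA1 and 7.33, 7.29 and 7.29 in PEO1. PAX8 was thus high in every serous library and absent from the A2780 counts, at least 1066-fold lower than in PEA1 and at least 508-fold lower than in PEO1 (limma adjusted p = 9.52e-18 and 3.26e-17). WT1, a zinc-finger factor kept by most serous carcinomas (chr11:32409321-32457110, minus strand), also had 0 reads in A2780. It reached 3.06, 2.76 and 2.11 in PEA1, on 7 to 11 reads a library, and 6.46, 6.44 and 6.57 in PEO1. The groups did not overlap, but PEA1 stood far below PEO1, and the lower bounds of the difference were 19.3-fold and 295-fold.

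MECOM, a zinc-finger regulator often amplified in serous carcinoma, had 0 reads in A2780 against 6.02, 5.84 and 5.88 in PEA1 and 4.64, 4.55 and 4.44 in PEO1. CDH6, a cadherin of renal and Müllerian epithelium, had 0 to 1 reads in A2780 and averaged 8.71 ± 0.08 in PEA1 and 9.38 ± 0.07 in PEO1, and it was also among the 8 largest lower differences of all genes. KLHL14, a Kelch-family adaptor, was also lower in A2780, with differences of -7.39 from PEA1 and -5.86 from PEO1. MUC16 (chr19:8959520-9121066, minus strand) was carried by PEO1, with values of 11.27, 11.19 and 11.80, while PEA1 held 0 to 5 reads and A2780 0 to 1. Its ratio to PEA1 was 17.2 with an interval of 2.30 to 761, and its call against PEA1 was lost under voom weights, with 2 reads added, after quantile normalization and against a 4-fold bound. MSLN (mesothelin) and WFDC2 (the HE4 antigen) completed the 8, with differences from PEA1 of -2.62 and -3.77 and from PEO1 of -10.46 and -7.34. Members off the same side included ESR1, the oestrogen receptor, at 7.84 ± 0.03 in PEO1 with 0 reads in PEA1 and 0 to 1 in A2780, and SOX17, with 1 to 9 reads in PEA1, 0 in A2780 and 0 to 1 in PEO1.

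**Figure D2:**
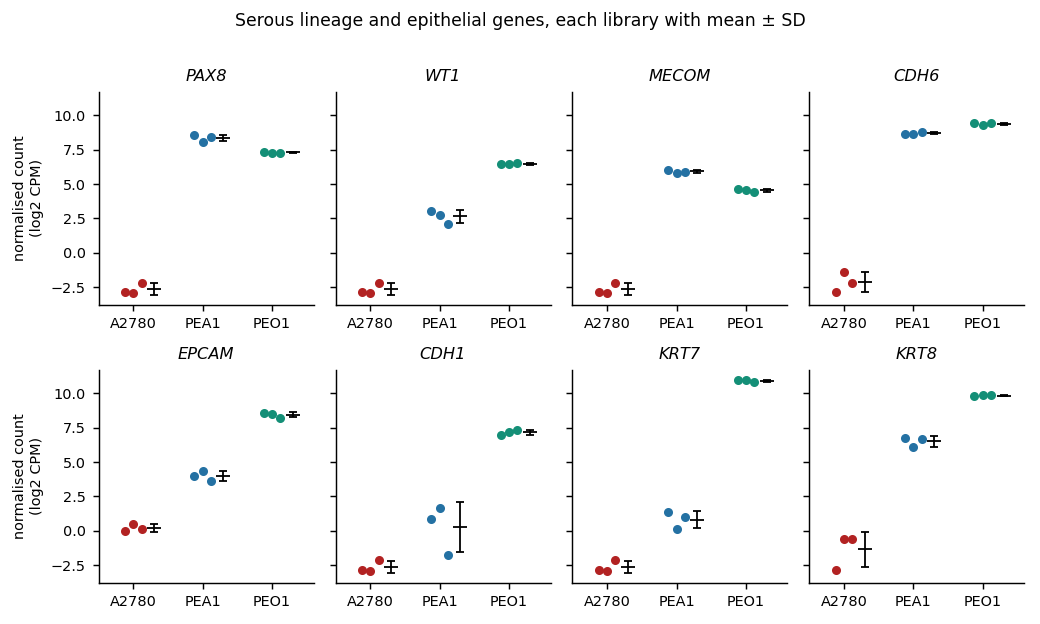
Log2 normalised count (log2 CPM) of 8 lineage and epithelial genes in each of the 9 libraries (points), with the mean and SD of the 3 libraries of each line beside them. A2780 lies lowest for every gene, at 0 reads for PAX8, WT1, MECOM, CDH1 and KRT7; PEA1 and PEO1 lie close together for PAX8 and CDH6, whereas PEA1 is near the floor for CDH1 and KRT7.

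Epithelial genes separated A2780 from PEO1 almost throughout and from PEA1 in part. All 32 listed epithelial genes were measured, but 27 of them had at most 3 reads in every A2780 library and were measured only through other lines. Of the 32, 13 were lower in A2780 than in both serous lines (against 10.9% of all genes) and 0 were higher (3.22%). Against PEO1 31 of 32 were lower, against PEA1 13 were lower and 1 was higher, and all 32 were higher in PEO1 than in PEA1. The list's median difference was -8.02 against PEO1 and -1.07 against PEA1, the latter being the value of a gene with 0 reads in both lines; at the bounds these medians were -7.82 and 0. EPCAM, the epithelial adhesion molecule (chr2:47572297-47614740, plus strand), measured -0.03, 0.50 and 0.16 in A2780, 3.96, 4.34 and 3.63 in PEA1 and 8.60, 8.53 and 8.24 in PEO1. The lines formed 3 separate levels, with A2780 13.6-fold below PEA1 and 303-fold below PEO1 (limma adjusted p = 1.69e-13 and 1.23e-18). A2780 held only 2 to 5 reads a library and PEA1 21 to 28, so the sizes of both folds depend in part on the added 0.5 reads.

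CDH1, which encodes E-cadherin, had 0 reads in A2780, 0 to 4 in PEA1 and values of 6.97, 7.21 and 7.32 in PEO1. Its bound was only 4.29-fold against PEA1, and its call against PEA1 was lost with 2 reads added, after quantile normalization and against a 4-fold bound. The basement-membrane-associated LAD1 had 0 reads in A2780, 4.82 ± 0.27 in PEA1 and 7.35 ± 0.13 in PEO1. SPINT2, an inhibitor of membrane proteases, and MAL2, a protein of apical transport, showed the same order of lines. The splicing factor ESRP1 and the transcription factor GRHL2 had 0 reads in both A2780 and PEA1 and averaged 8.39 ± 0.03 and 6.51 ± 0.20 in PEO1. Both of these separated PEO1 from the other 2 lines rather than A2780 from the serous lines.

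ZEB1, a repressor of epithelial genes that binds the E-box CACCTG, was present in A2780 and PEA1 and nearly absent from PEO1. Its values were 5.83, 6.05 and 5.73 in A2780, 6.61, 6.96 and 6.82 in PEA1 and -0.29, -0.90 and -2.15 in PEO1. A2780 thus differed by -0.93 from PEA1 and by 6.98 from PEO1. The related ZEB2 averaged 3.80 ± 0.16 in PEA1 and had 0 reads in A2780 and 0 to 2 in PEO1. The E-box was searched as CACCTG or CAGGTG, which covers both strands, in the 250 bases before the RefSeq start of each gene with a promoter entry (GRCh38.p14). It occurred in 15.5% of 8983 promoters, in 20.7% of 974 promoters of same-side lower genes and in 14.3% of 265 promoters of same-side higher genes. Among 18 promoters of the whole epithelial list, 6 held it. Of the 13 same-side lower epithelial genes, 6 had an entry and 4 of these held the motif: AP1M2, an adaptor of basolateral sorting, the ETS factor ELF3, LAD1 and the polarity protein CRB3. The match is a description of letters and does not show binding. The same E-box is bound by SNAI factors, and SNAI2 was higher in A2780 by 4.39 than in PEA1 and by 4.84 than in PEO1. Whether ZEB1, ZEB2 or SNAI2 acts on these genes was not tested. The grainyhead motif AACCGGTT was also searched, and it occurred in 0 of the 18 epithelial promoters and in 8 of all 8983. The 250 bases of AP1M2, with its 3 E-boxes in capitals, are shown first (chr19:10587313-10587562, minus strand, 5′ to 3′). They are shown whole because they lie before the first exon that GENCODE gives for this gene.
AP1M2 promoter: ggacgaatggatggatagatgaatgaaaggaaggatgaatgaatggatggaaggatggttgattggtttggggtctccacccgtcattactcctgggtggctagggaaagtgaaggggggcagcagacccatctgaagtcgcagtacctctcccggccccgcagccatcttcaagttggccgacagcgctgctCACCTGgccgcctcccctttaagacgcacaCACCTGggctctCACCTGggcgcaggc
For the other 3 genes, 30 bases around the E-box nearest to the start are shown, again 5′ to 3′ on the gene's strand with the E-box in capitals.
ELF3 site: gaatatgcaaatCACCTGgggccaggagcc
LAD1 site: ggggaggggcgcCAGGTGaggcggcggccg
CRB3 site: agtgcgctctccCAGGTGagtgactaaact
These lie at chr1:202010455-202010484 (plus strand), chr1:201399342-201399371 (minus strand) and chr19:6464199-6464228 (plus strand), with the motif beginning 120, 35 and 60 bases before the start. LAD1 held 2 E-boxes and CRB3 held 5 in the window searched. Expression of these 4 genes followed the line order of the list: AP1M2 differed by -2.90 from PEA1 and -7.58 from PEO1, ELF3 by -4.06 and -8.19, and CRB3 by -2.78 and -5.85.

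Keratins and desmosome proteins build the epithelial cytoskeleton and its junctions. Of 26 listed genes, 20 were measured. Of the 20, 12 were lower in A2780 than in both lines (against 10.9% of all genes) and 0 were higher (3.22%). In 17 of the 20 no A2780 library held more than 3 reads, so these 17 could be measured only through other lines. The count therefore describes these genes and is no evidence for the list. The list's median equal-weight difference was -6.99 (-6.70 at the bounds). KRT8 (chr12:53290971-53343738, minus strand) measured -2.84, -0.63 and -0.58 in A2780, 6.77, 6.06 and 6.65 in PEA1 and 9.79, 9.87 and 9.84 in PEO1. KRT18, its partner, which overlaps KRT8 on the opposite strand, had exactly 3 reads in each A2780 library against 6.10 ± 0.10 in PEA1 and 8.57 ± 0.03 in PEO1. Unlike KRT7, both were far above the floor in each serous line. Both have many processed pseudogenes, and how reads shared with them were assigned is not given in the sources used here. The desmosomal cadherin DSG2 had 0 to 2 reads in A2780 and 8.40 ± 0.11 and 8.89 ± 0.0046 in PEA1 and PEO1. The plaque proteins DSP and EVPL had 0 to 1 reads in A2780 and averaged 6.02 ± 0.08 and 5.99 ± 0.20 in PEA1. KRT7 had a bound of 5.0-fold against PEA1 and 6179-fold against PEO1, and its call against PEA1 was lost after quantile normalization. KRT19 missed the threshold against PEA1 with a difference of -1.76, but was called without A2780 replicate 1 (equal-weight difference -7.02) or replicate 3 (-6.99).

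Mesenchymal genes were found on both sides. Of 22 measured, 5 were higher in A2780 than in both serous lines (against 3.22% of all genes) and 6 were lower (10.9%). The higher genes were SNAI2 and TWIST1, transcription factors of epithelial-mesenchymal transition, the collagen COL5A2, the calcium-binding S100A4 and the actin-associated TAGLN. SNAI2 measured 5.17, 5.89 and 5.57 in A2780, at most 2.00 in PEA1 and at most 1.22 in PEO1. The lower genes were TWIST2, FN1, COL5A1, AXL, LOX and TGFBI. FN1 (fibronectin) had 10 to 16 reads in A2780 libraries and averaged 11.13 ± 0.09 in PEA1 and 8.24 ± 0.14 in PEO1. The matrix protein TGFBI had 0 reads in A2780 and was at least 2996-fold higher in PEA1 and at least 125-fold higher in PEO1. CDH2 (N-cadherin) averaged 6.88 ± 0.24 in A2780, 8.26 ± 0.09 in PEA1 and 1.07 ± 0.76 in PEO1. VIM, ZEB1 and CDH2 thus grouped A2780 with PEA1, while FN1 and TGFBI set A2780 apart from both serous lines.

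The lower genes picked by size included CD44, LAMA3 and ITGA3. CD44, the hyaluronan receptor (chr11:35160429-35253949, plus strand), had 0 reads in every A2780 library. It measured 10.36, 10.39 and 10.44 in PEA1 and 9.26, 9.29 and 9.41 in PEO1, so it was at least 4367-fold and at least 2103-fold higher there (limma adjusted p = 2.34e-18 and 5.34e-18). LAMA3, a chain of the epithelial laminin-332, had 0 reads in A2780 libraries and averaged 7.92 ± 0.13 in PEA1 and 9.82 ± 0.10 in PEO1. ITGA3, the integrin chain that binds laminin-332, was low but measured in A2780 with 2.21, 2.17 and 2.09. Its values were 10.95, 10.65 and 10.71 in PEA1 and 10.01, 10.06 and 10.07 in PEO1, which made it the largest lower difference among genes with more than 3 reads in each of the 9 libraries, 392-fold and 237-fold. This laminin chain and the integrin chain that binds its trimer were thus both low in A2780.

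The other lower genes picked by size alone were ARHGAP29, a GTPase-activating protein, the phospholipase PLCB4, the matrix peroxidase PXDN and the transcription factor ETS1, which had 0 to 1 reads in A2780 and smaller differences of at least 10.39 on the log2 scale. Among genes with reads in every library, the receptor tyrosine kinase MET averaged 1.5 ± 0.63 in A2780, 9.86 ± 0.31 in PEA1 and 8.91 ± 0.08 in PEO1. EGFR averaged 2.55 ± 0.70, 9.34 ± 0.29 and 8.73 ± 0.04. The metallothionein MT2A, the actin-capping CAPG, the secreted LGALS3BP and the metalloproteinase inhibitor TIMP2 were lower by 6.12 to 7.92 on the log2 scale. Both growth-factor receptors were thus more than 6 log2 units below either serous line.

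Genes higher in A2780 were led by CCND2, which encodes cyclin D2 (chr12:4378937-4414519, plus strand). It measured 11.53, 11.56 and 11.63 in A2780, had 0 reads in PEA1 and 0 to 2 reads in PEO1, and was at least 4574-fold higher than in PEA1 (limma adjusted p = 5.96e-14). HGF, the ligand of MET, measured 9.41, 9.75 and 9.48 in A2780 and had 0 reads in all 6 serous libraries, at least 1146-fold and 3167-fold higher. A2780 was thus high in the ligand HGF and low in its receptor MET, and the serous lines were the reverse. COL3A1, COL11A1, the melanosome enzyme TYRP1 and the olfactomedin OLFM3 likewise had 0 reads in PEA1 and PEO1 and averaged 9.28 ± 0.26, 7.73 ± 0.20, 7.91 ± 0.23 and 8.12 ± 0.11 in A2780. The gap-junction protein GJA1 averaged 9.09 ± 0.14 in A2780 with 0 to 1 reads in serous libraries, and GPRIN3 8.70 ± 0.18 with 0 to 6.

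Among genes with more than 3 reads in each of the 9 libraries, 8 were named by the size of their higher difference. The homeobox genes DLX1, SHOX2 and MEIS2 were 3 of these and averaged 7.87 ± 0.06, 7.68 ± 0.19 and 6.92 ± 0.13 in A2780. Their differences from PEA1 were 5.06, 4.33 and 4.30 and from PEO1 6.27, 6.54 and 3.98. NES, an intermediate filament of neural progenitors, measured 9.85, 9.50 and 9.70 in A2780, 5.05, 5.36 and 5.65 in PEA1 and 1.09, 0.69 and 0.18 in PEO1, with each line at its own level. The cytokine-signalling inhibitor SOCS2, FAM171B, the amino-acid transporter SLC7A2 and the sialic-acid enzyme GNE were the remaining 4 of this selection, higher by 4.05 to 5.56 on the log2 scale. The first group of higher genes rested on serous libraries near 0 reads, whereas these rested on measured levels in every library.

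Several oncofetal and pluripotency genes were higher in A2780. Of 28 listed genes, 13 were measured, and genes low in every library were absent from the data. Of the 13, 7 were higher in A2780 than in both serous lines (against 3.22% of all genes) and 0 were lower (10.9%). Their median equal-weight difference was 3.24 (2.86 at the bounds). Members silent in every serous line could be measured only through A2780 or CP70, so the count describes these genes and is no evidence for the list. Of the other 6, SALL1 differed by -9.77 from PEA1 and -0.48 from PEO1, and IGF2BP2 and HMGA1 had equal-weight differences of -0.19 and -0.05. LIN28B (chr6:105384491-105531207, plus strand) measured 8.34, 8.64 and 8.41 in A2780, had 0 reads in PEA1 and 1 to 3 reads in PEO1, and was at least 539-fold higher than in PEA1. IGF2BP1, a fetal RNA-binding protein, measured 8.96, 9.14 and 9.05 in A2780 and averaged 0.78 ± 0.96 in PEA1 and -0.46 ± 0.41 in PEO1. TRIM71, an RNA-binding ubiquitin ligase that is itself a let-7 target, measured 6.23, 6.54 and 6.35 in A2780 and had 0 reads in all 6 serous libraries. All 3 were thus present at high levels in A2780 and at or near 0 reads in the serous lines. SALL4, a stem-cell zinc-finger factor, averaged 8.22 ± 0.08 in A2780, 0.13 ± 1.46 in PEA1 and 1.96 ± 0.17 in PEO1.

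The imprinted RNA H19, the pluripotency factor ZFP42 and TERT, the telomerase reverse transcriptase, differed from PEA1 by 2.84, 2.09 and 4.05 and from PEO1 by 4.20, 7.80 and 2.43. HMGA2, the chromatin protein repressed by let-7, was present in all 3 lines at 9.17 ± 0.32 in A2780, 7.59 ± 0.18 in PEA1 and 5.04 ± 0.18 in PEO1. Its difference of 1.58 from PEA1 missed the threshold. IGF2BP2, IGF2BP3, HMGA1, DNMT3B and SALL1 were not on the same side, and SALL1 differed by -9.77 from PEA1.

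**Figure D3:**
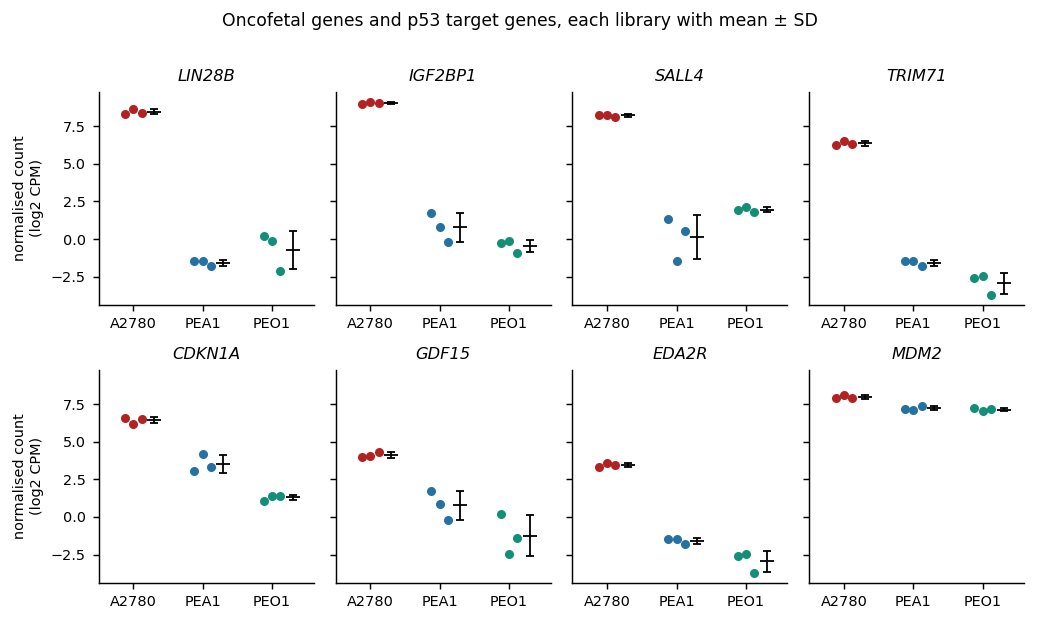
Log2 normalised count (log2 CPM) of 4 oncofetal genes and 4 p53 target genes in each of the 9 libraries (points), with the mean and SD of each line. LIN28B, IGF2BP1, SALL4 and TRIM71 lie above 6 in A2780 and at most 2.16 in the serous libraries; CDKN1A, GDF15 and EDA2R are also highest in A2780, whereas MDM2 lies near 7 to 8 in all 3 lines.

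Of 33 measured p53 target genes, 6 were higher in A2780 than in both serous lines (against 3.22% of all genes), 2 were lower (10.9%) and 25 were not on the same side, with a median equal-weight difference of 1.19 beside -0.08 over all genes. CDKN1A, the cell-cycle inhibitor p21 (chr6:36644237-36655114, plus strand), measured 6.58, 6.19 and 6.51 in A2780, 3.06, 4.18 and 3.33 in PEA1 and 1.09, 1.42 and 1.40 in PEO1. It was 7.48-fold above PEA1 and 34.9-fold above PEO1 without overlap (limma adjusted p = 5.28e-07 and 9.79e-11). GDF15, a stress-induced cytokine, averaged 4.12 ± 0.17 in A2780, on 44 to 64 reads, and at most 4 reads were found in any serous library. EDA2R, a receptor of the tumour necrosis factor family, averaged 3.45 ± 0.14 and had 0 reads in the serous lines. SESN2, AEN and C12orf5 (TIGAR) were higher by 2.02 to 3.08. CDKN1A and GDF15 lost their calls against a 4-fold bound.

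The death receptor TNFRSF10A had 0 reads in A2780 and was at least 109-fold and 117-fold higher in PEA1 and PEO1. PHLDA3, an inhibitor of AKT, was also lower in A2780, with differences of -5.34 and -7.91. MDM2, the p53 ubiquitin ligase and one of its best-known targets, averaged 7.99 ± 0.12, 7.23 ± 0.15 and 7.14 ± 0.10 and was 1.69-fold and 1.80-fold higher in A2780, below the threshold used.

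Some genes of HLA class I antigen presentation were lower in A2780. Of 17 measured genes, 5 were lower than in both serous lines (against 10.9% of all genes) and 0 were higher (3.22%), with a median equal-weight difference of -2.34 beside -0.08 over all genes. HLA-B, a class I heavy chain, measured 1.69, 2.00 and 1.30 in A2780 against 8.41 ± 0.08 in PEA1 and 6.68 ± 0.10 in PEO1. Its locus is highly polymorphic and shares sequence with other class I genes, so reads of a distant allele could be lost or assigned elsewhere, which was not tested. The immunoproteasome subunits PSMB8 and PSMB9, neighbours on chromosome 6, had 0 and 0 to 1 reads in A2780, and the class I transactivator NLRC5 was lower by 4.26 and 2.54. B2M, the invariant light chain, was lower by 2.45 and 1.96 and so missed the threshold against PEO1, and PSMB9 lost its call after quantile normalization.

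Subunits of the SWI/SNF chromatin remodeller gave counts near those of all genes: of 22 measured, 1 was higher (against 3.22% of all genes) and 2 were lower (10.9%), with a median equal-weight difference of 0.27. The lower genes were SMARCA2 and ARID1B. SMARCA2 is the BRM ATPase (chr9:1980290-2193624, plus strand), and had 0 reads in A2780, 6.34, 6.94 and 6.21 in PEA1 and 5.13, 5.29 and 5.17 in PEO1. The alternative ATPase SMARCA4 differed by 0.95 and 0.35. ARID1B was lower by 2.96 and 2.75, whereas its paralogue ARID1A averaged 7.11 ± 0.18 in A2780 and differed by 0.41 and 0.15. SMARCD3 was higher by 4.75 and 2.80, and its call was lost against a 4-fold bound.

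HOX genes, which record position along the body axis, were found on both sides. Of 15 measured, 3 (HOXC6, HOXC8 and HOXC9) were higher in A2780 than in both lines, 6 (HOXA3, HOXA5, HOXB6, HOXB7, HOXB8 and HOXB9) were lower, and 6 (HOXA10, HOXB2, HOXB3, HOXB4, HOXB5 and HOXC10) were not on the same side. Over all genes 3.22% were higher and 10.9% lower. HOXC8 averaged 5.42 ± 0.10 in A2780 with 0 reads in PEA1 and 1.51 ± 0.34 in PEO1. HOXB9 had 0 reads in A2780 and averaged 4.44 ± 0.09 and 3.24 ± 0.47 in PEA1 and PEO1. Annotated HOX transcripts overlap one another on the same strand, so reads of neighbours such as HOXB7 and HOXB9 cannot be fully separated. HOXC6 lost its call against a 4-fold bound.

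Neural genes did not move together. Of 13 measured, NES and the heavy neurofilament NEFH were higher, and NCAM1, SYT1, MAP2, CRMP1, GFRA1, L1CAM and NRCAM were lower. Over all genes 3.22% were higher and 10.9% lower. NEFH averaged 6.50 ± 0.10 in A2780 with 0 reads in PEA1 and 0 to 1 in PEO1. GFRA1, a receptor for GDNF, had 0 reads in A2780 and averaged 9.67 ± 0.09 in PEA1 and 5.87 ± 0.04 in PEO1. L1CAM, an adhesion molecule, had 0 to 1 reads in A2780 and averaged 3.42 ± 0.51 and 7.54 ± 0.09. INA, another neuronal filament, was not on the same side, with differences of -5.33 from PEA1 and 1.63 from PEO1.

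Shorter lists gave few same-side genes, to be read beside 3.22% higher and 10.9% lower over all genes. PRAME, the 1 of 3 measured cancer-testis antigens to be called, averaged 8.15 ± 0.03 in A2780, 5.60 ± 0.19 in PEA1 and 3.07 ± 0.25 in PEO1. Among 5 clear cell markers TFPI2 was lower in A2780 and 0 were higher. Among 7 Wnt targets BAMBI and TNFRSF19 were lower, and TNFRSF19 lost its call with 2 reads added, after quantile normalization and against a 4-fold bound. The 5 kallikreins measured had 0 reads in A2780 and PEA1 and summed to 1460 to 1659 CPM in PEO1, so none separated A2780 from both serous lines.

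**Figure D4:**
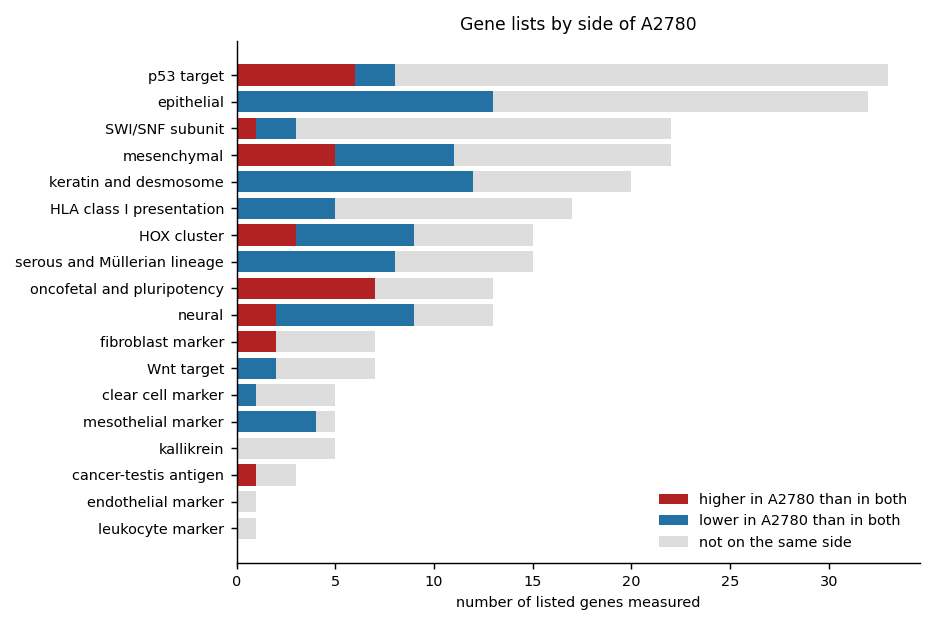
Number of measured genes in each list that were higher in A2780 than in both serous lines (red), lower than in both (blue) or not on the same side (grey). The serous lineage, epithelial, keratin and desmosome, mesothelial and HLA lists hold lower genes and no higher gene, the oncofetal list holds 7 higher genes and no lower gene, and the mesenchymal, p53 target, neural and HOX lists hold both. Over all genes 3.22% were higher and 10.9% lower.

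Markers of other cell types were summed as a check of the cultures. The leukocyte list had 1 measured gene, PTPRC, at 0.00 to 0.26 CPM in A2780 and 0.00 in the serous lines, and the endothelial list had CDH5 alone, at 0.00 to 0.15. Fibroblast markers summed to 512 to 724 CPM in A2780, 366 to 449 in PEA1 and 154 to 174 in PEO1. Of 7 measured, COL3A1 and DCN were higher in A2780 (against 3.22% of all genes), whereas COL1A1 differed by -5.91 and 0.52 and COL1A2 by 0.23 and -0.24. DCN rested on 4 to 12 reads in A2780 and lost its call with 2 reads added and against a 4-fold bound. Mesothelial markers summed to 0.45 to 1.68 CPM in A2780, 167 to 189 in PEA1 and 262 to 285 in PEO1. Of 7 listed, 5 were measured, and PDPN, UPK1B, UPK3B and CALB2 were lower in A2780 (against 10.9% of all genes). In 3 of the 5 no A2780 library held more than 3 reads, so these 3 could be measured only through other lines. The count is therefore no evidence for the list. UPK1B, UPK3B and CALB2 each lost their call with 2 reads added, after quantile normalization and against a 4-fold bound. UPK1B also lost its call without PEA1 replicate 1 (equal-weight difference -6.04), UPK3B without A2780 replicate 2 (-4.04) or 3 (-4.43) or PEA1 replicate 3 (-4.68), and CALB2 without PEO1 replicate 1 (-3.10) or 3 (-3.27). PDPN averaged 3.97 ± 0.44 in PEA1 and 3.61 ± 0.20 in PEO1. Whether other cells contributed to any of these values was not tested.

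Some lower genes lay side by side. In 11 runs, at least 4 neighbouring genes of the table were all lower in A2780 and none had more than 3 reads in any A2780 library. One on chromosome 17 (33570090 to 33775856 in GRCh37) held SLFN5, SLFN11, SLFN12 and SLFN13, with at most 1 read in A2780 and at least 24 in each serous library. Others held the metallothioneins MT1L, MT1E, MT1M, MT1F and MT1G on chromosome 16, 5 zinc-finger genes from ZNF350 to ZNF841 on chromosome 19, and the EGFR ligands EREG, AREG and BTC on chromosome 4, where A2780 held at most 1 read. In the metallothionein and ligand runs the lowest serous count was 0, so not every gene there had reads in every serous library. Metallothioneins, and the AREG copies, are very similar to each other in sequence, so counts within those runs are uncertain. EGFR and these 3 ligands were thus low in the same line. SLFN11, singled out after its values were seen, is a DNA-damage response helicase (chr17:33677324-33700720, minus strand). It had 0 to 1 reads in A2780 and averaged 5.32 ± 0.37 in PEA1 and 5.74 ± 0.08 in PEO1.

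Whether the baseline difference was also present in the resistant lines was examined by comparing CP70 with PEA2 and PEO4 in the same way. There 399 genes were higher in CP70 than in both (3.10%) and 1296 lower (10.1%). Of the genes higher in A2780, 180 of 414 (43.5%) were also higher in CP70, and 9 were lower. Of those lower in A2780, 783 of 1398 (56.0%) were also lower in CP70, and 12 were higher. The difference between the sensitive and the resistant contrast, tested directly, passed for 1806 of all genes (14.1%), for 190 of the higher and for 635 of the lower same-side genes. PAX8 was among the genes where it did not pass, with equal-weight differences of -10.48 in the sensitive and -10.29 in the resistant lines, and a difference of -0.19 with a standard error of 0.33 (limma adjusted p = 0.661).

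Several A2780 genes were not shared by CP70. TRIM71 had 1 to 2 reads in CP70 libraries, with equal-weight differences of 8.63 in the sensitive and 1.0 in the resistant lines. CDKN1A had 12 to 24 reads in CP70 and differed by 4.02 and -1.61, and GDF15, with 1 to 6 reads in CP70, by 4.35 and -3.43. These p53 targets were thus high in A2780 and low in its derivative. HOXB9 had 0 reads in A2780 and 140 to 185 in CP70, and TNFRSF19 had 0 to 1 reads in A2780 and 819 to 1217 in CP70. For CDH1 the gap was -6.36 in the sensitive and -11.25 in the resistant lines, while CDH1 had 0 reads in A2780 and CP70 and averaged 0.25 ± 1.82 in PEA1 and 9.53 ± 0.22 in PEA2.

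**Figure D5:**
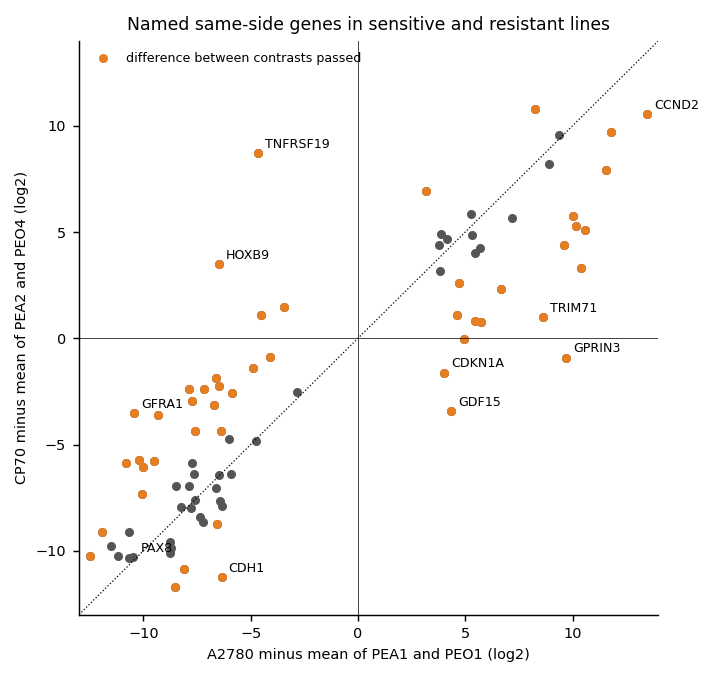
Equal-weight log2 difference of A2780 from PEA1 and PEO1 (horizontal axis) and of CP70 from PEA2 and PEO4 (vertical axis) for named same-side genes; orange points passed the test of the difference between both contrasts, and the dotted line marks equal values. PAX8 lies on the line at -10.48 and -10.29, whereas CDKN1A, GDF15, GPRIN3, HOXB9 and TNFRSF19 lie in the quadrants where both contrasts have opposite signs.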

How the data were processed

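RNA from cultured lines was depleted of ribosomal RNA and sequenced from strand-marked libraries. The authors assigned reads to hg19 genes with featureCounts and normalised them with limma, and Bowtie2 is also named in the submitters' processing notes, with its role not given in the sources used here. The deposited table holds log2 CPM (scaled counts) with 0.5 reads added. From it whole reads were recovered (100% of values within 0.01 reads), and the authors' scaling matched a TMM scaling up to a constant. Each gene of the table reached at least 10.2 CPM in at least 2 of the 18 libraries, so genes low everywhere were not analysed here.

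One limma-trend model with 6 line means was fitted to all 12853 genes (R 4.3.3, limma 3.58.1), p-values were adjusted by Benjamini-Hochberg, and calls needed an absolute log2 difference above 2 and an adjusted p below 0.05. The step was tested on simulated data, in which 100 of 100 higher and 100 of 100 lower genes were recovered and 0 unchanged genes called. There the changed genes were drawn from well-counted genes and all moved by the same factor, with the same spread for every gene. All other genes had equal means in all lines. The simulation therefore does not show how well differences near 0 reads are recovered, or how PEA1 and PEO1 differ. Named genes were fixed anchors, the 8 largest same-side differences per direction with non-overlapping libraries, the same among genes above 3 reads in all 9 libraries, and the 4 largest per list, without genes lacking a symbol; a few of these genes are not reported here. The comparison, lists and rules were chosen with earlier results of these data known. Gene coordinates come from GENCODE on GRCh37 (12642 of 12853 identifiers matched) and promoters from RefSeq on GRCh38.p14 (8983 of 12318 symbols matched). Alternatives were another normalization, voom weights, filters, thresholds, a replicate block and leaving out each library. Replicate numbers did not pair the libraries.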

Additional observations from a re-analysis of the deposited data

Results flagged for a closer look

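For 48 named same-side genes, the equal-weight log2 difference of A2780 from PEA1 and PEO1 differed from that of CP70 from PEA2 and PEO4 by a direct test of both contrasts (limma, absolute difference above 2 and adjusted p below 0.05), with 14.1% of all genes passing it. Values below are the sensitive minus the resistant difference, negative where A2780 stood lower relative to its serous lines than CP70 did. Since each value combines 6 lines, it does not say which line moved, and this was not tested further.

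Among lineage, epithelial and keratin genes the differences were MECOM -5.47 and MUC16 2.79 for the first group, CDH1 4.89 and SPINT2 2.18 for the second and KRT7 3.18, KRT8 -3.74, KRT18 -4.78, KRT80 -2.73, DSG2 -3.95 and DSP -5.71 for the third. The gap of A2780 was smaller than that of CP70 for CDH1, SPINT2, KRT7 and MUC16, and larger for MECOM, KRT8, KRT18, KRT80, DSG2 and DSP. Among genes picked by size they were CD44 -2.25, ARHGAP29 -2.82, PLCB4 -4.92, CAPG -2.0, EGFR -4.22, LGALS3BP -4.77 and TIMP2 -3.57 on the lower side and CCND2 2.91, HGF 2.09, COL3A1 3.64, COL11A1 4.25, OLFM3 7.09, GJA1 5.49, GPRIN3 10.61, TYRP1 4.89, SLC7A2 4.97, SHOX2 4.63 and GNE 2.11 on the higher side. These genes were picked for the size of their A2780 difference, so a smaller difference in CP70 follows in part from the choice.

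Oncofetal genes gave LIN28B 5.21 and TRIM71 7.63, and p53 targets CDKN1A 5.63, GDF15 7.77, EDA2R 4.96 and PHLDA3 -4.75. Mesenchymal and fibroblast genes gave SNAI2 3.53, TGFBI -4.50 and DCN -3.75, and mesothelial CALB2 -4.90. Neural genes gave NES 4.36, NEFH -2.57, GFRA1 -6.88 and L1CAM -3.26. HLA and immunoproteasome genes gave HLA-B -3.30 and PSMB9 -3.52, HOX genes HOXB7 -5.63 and HOXB9 -9.98, and Wnt targets BAMBI -3.19 and TNFRSF19 -13.36. NEFH and DCN were further above the serous lines in CP70 than in A2780. The value of TNFRSF19 was the largest in size of these, with 0 to 1 reads in A2780 libraries and 819 to 1217 in CP70 libraries.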

How the results depend on the processing

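Counts of same-side genes stayed within 1.5 times of 414 higher and 1398 lower under voom weights (408 and 1391), 2 reads added (362 and 1212), a mean log2 value above 0 (344 and 1376), no variance trend, the sensitive libraries fitted alone and leaving out each library (401 to 422 and 1372 to 1403, with at least 395 and 1333 genes shared). Quantile normalization moved 4 counts: 904 lower on the same side, 1018 higher by the equal-weight contrast, and 303 higher and 467 lower also called in CP70. Against a 4-fold bound (treat) the counts were 227 higher on the same side, 413 higher by the equal-weight contrast, 1156 between PEA1 and PEO1, 84 and 519 also called in CP70 and 849 for the difference between the contrasts. At an absolute difference above 1 they were 1101 and 2309 on the same side, 2003 and 3330 by the equal-weight contrast, 5777 against PEA1, 5776 against PEO1, 5061 between PEA1 and PEO1, 475 and 1377 also called in CP70 and 3830 for the difference. These 3 settings change the scaling or the threshold by construction.

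The replicate block gave 414 and 1398 same-side genes and 659 and 2096 by the equal-weight contrast. Replicate numbers did not pair the libraries: their mean correlations between lines lay between -0.02 and 0.01. Of 99 named genes, 18 changed their call under at least 1 of 28 settings and no called gene changed direction. PEA1 had the fewest reads, and 3 reads equal 1.73 to 2.18 CPM there.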

Other observations

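Same-side genes were spread over the chromosomes unevenly. The share of tested genes lower in A2780 than in both serous lines ranged from 4.79% on chromosome 22 to 19.8% on chromosome 18, and the share higher from 1.22% on chromosome 14 to 7.19% on chromosome 22. The median equal-weight log2 difference was -0.57 on chromosome 8 and 0.63 on chromosome 22, beside -0.08 over all genes. Differences in copy number between the lines were not measured here.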
